A study of Mus musculus with 12 samples.

Results

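The abundance of long noncoding RNAs was followed in the mouse prefrontal cortex after repeated cocaine. The genes described are Malat1, Neat1, Meg3, Rian, Mirg, Miat, Snhg11, Gas5 and Peg13, which were taken by name wherever the gene column of a deposited table held one of them, alone or in a list of names sharing one locus. Of the 9 genes, 8 had a row, and the loci naming them numbered 10 of 41319 (2 h), 11 of 42527 (24 h) and 9 of 41667 (7 d). Peg13 had no row at any time. Prefrontal tissue came from male C57BL/6 mice aged 10 weeks, which had received repeated cocaine or, in the control groups, saline, and which were killed at 1 of 3 times counted from the final injection (2 h, 24 h, 7 d). Each of the 6 groups (control and cocaine at 2 h, at 24 h and at 7 d) had 2 libraries of polyadenylated RNA, and each library pooled the tissue of 5 animals. The deposited tables give 1 FPKM value per group and locus (fragments per transcript length and library size), already combined over the 2 libraries. No spread between libraries can be computed from them, so no difference below was tested. The only scale at hand is the range of the 3 control values of a gene, which come from tables that were normalized separately. Because the tissue is bulk, fewer cells of a type and less RNA per cell cannot be told apart.

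Long noncoding RNAs are transcripts that are not translated into protein, and many of them work inside the nucleus. Malat1 is concentrated in nuclear speckles, bodies rich in splicing factors, and Neat1 is the scaffold of paraspeckles. Meg3, Rian and Mirg are expressed from the maternal chromosome across the imprinted Dlk1-Dio3 region, where Rian carries small nucleolar RNAs of the C/D box class and Mirg carries a cluster of microRNAs. Miat, also called Gomafu, is a nuclear RNA of neurons. Gas5 carries small nucleolar RNAs in its introns, and its spliced transcript is a known substrate of nonsense-mediated decay. Snhg11 is named as a small nucleolar RNA host gene and is strongly expressed in brain. Peg13 is expressed from the paternal chromosome within an intron of Trappc9.

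The promoters of the members that moved most, and of Gas5 as a member that moved little, are shown because cocaine signalling in neurons is known to act through the transcription factor CREB, which binds the cAMP response element. Sequences are from RefSeq on GRCm38.p6, cover 250 bases before to 50 bases after an annotated start, and read 5′ to 3′ on the gene's strand. Windows were found for 7 of the 9 genes, and none is shown for Neat1 or Peg13. Capitals mark the full element TGACGTCA, which contains its core on both strands. They also mark the core alone, TGACG, and a TATA motif with the letters TATAAA. Each was searched on both strands, so a match in capitals may read as its reverse complement.
Meg3: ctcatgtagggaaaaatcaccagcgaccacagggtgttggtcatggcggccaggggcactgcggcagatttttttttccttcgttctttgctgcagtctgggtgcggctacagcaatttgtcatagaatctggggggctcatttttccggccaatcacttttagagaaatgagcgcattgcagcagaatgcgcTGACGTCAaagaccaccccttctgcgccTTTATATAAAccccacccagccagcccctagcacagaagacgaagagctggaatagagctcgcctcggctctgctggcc
Gas5: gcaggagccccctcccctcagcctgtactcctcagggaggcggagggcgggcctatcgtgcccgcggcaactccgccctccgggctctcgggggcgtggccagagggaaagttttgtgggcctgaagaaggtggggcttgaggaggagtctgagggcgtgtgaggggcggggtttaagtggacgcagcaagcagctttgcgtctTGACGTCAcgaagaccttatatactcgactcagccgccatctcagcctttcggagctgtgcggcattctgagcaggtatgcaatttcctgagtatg
Malat1: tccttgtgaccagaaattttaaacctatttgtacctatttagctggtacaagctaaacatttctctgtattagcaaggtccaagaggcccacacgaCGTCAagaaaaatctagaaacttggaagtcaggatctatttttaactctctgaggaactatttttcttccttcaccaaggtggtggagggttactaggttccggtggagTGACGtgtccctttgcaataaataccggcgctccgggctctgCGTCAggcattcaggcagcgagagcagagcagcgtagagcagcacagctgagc
Snhg11: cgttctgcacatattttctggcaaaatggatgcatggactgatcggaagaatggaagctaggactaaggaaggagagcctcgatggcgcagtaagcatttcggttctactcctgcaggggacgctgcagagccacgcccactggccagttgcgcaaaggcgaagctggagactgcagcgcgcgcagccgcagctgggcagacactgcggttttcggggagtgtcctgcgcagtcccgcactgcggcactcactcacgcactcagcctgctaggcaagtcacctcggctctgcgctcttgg
Miat: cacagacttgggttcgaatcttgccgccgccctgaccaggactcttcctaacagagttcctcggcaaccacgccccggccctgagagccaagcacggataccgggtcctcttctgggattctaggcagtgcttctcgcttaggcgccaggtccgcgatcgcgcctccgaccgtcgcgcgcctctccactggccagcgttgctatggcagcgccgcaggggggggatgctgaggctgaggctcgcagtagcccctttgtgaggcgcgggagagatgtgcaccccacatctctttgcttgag

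RefSeq lists a pair of windows each for Meg3 and Gas5, and the one of each with the full element is printed. The printed Meg3 window (chr12:109540746-109541045, plus strand) held a full element at position -57 from the start, and an overlapping pair of TATAAA matches begins at -29. The window of the second Gas5 start (chr1:161034916-161035215, plus strand) held a full element at position -46. The other Meg3 window (chr12:109545148-109545447) and the other Gas5 window (chr1:161034351-161034650) held 0 full elements and 0 cores. The Malat1 window (chr19:5802623-5802922, minus strand) held 3 copies of the core and no full element. The windows of Snhg11 (chr2:158375463-158375762, plus strand) and Miat (chr5:112228899-112229198, minus strand) held neither, nor did those of Rian and Mirg. Among 32851 mouse promoter windows of this length, 1.79% held the full element, 20.8% the core and 13.6% TATAAA. The AP-1 motif TGANTCA, present in 7.81% of all windows, was found in none of the windows of the members. These matches describe letters in a window only. Meg3 and Gas5 each had a full element in 1 of 2 windows. As given below, the log2 difference of cocaine from control at 2 h was -0.76 for Meg3 and -0.04 for Gas5. Whether the element has a part in either value was not tested.

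Several loci are named jointly with small RNAs that the same transcript carries, and their FPKM sums what was assigned to every name. The Meg3, Rian and Mirg loci were listed with 12 microRNA genes, 9 of them at Mirg, which give 22 mature microRNAs in RefSeq. A few are shown, with the seed (bases 2 to 8) in capitals, to make plain which products these host transcripts carry; miR-770 was listed with the Meg3 locus, miR-370 with Rian and the others with Mirg. The deposited Mirg locus starts before the RefSeq gene (chr12:109734981-109749458), and of those shown miR-134, miR-382 and miR-485 lie in that earlier stretch.
miR-770-5p: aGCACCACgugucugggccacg
miR-370-3p: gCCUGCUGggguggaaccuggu
miR-134-5p: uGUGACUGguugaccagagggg
miR-382-5p: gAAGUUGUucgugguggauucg
miR-410-3p: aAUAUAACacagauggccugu
miR-485-3p: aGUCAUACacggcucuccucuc
None of the 22 mature microRNAs shared its seed with another of the 22. Mature microRNAs are too short for these libraries, and the values below speak of the host loci only.

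The members covered a wide span of levels, and the word abundant applied to part of them. The libraries were of polyadenylated RNA, so molecules without a poly(A) tail are not measured and these levels are not total abundance. Percentiles are given among the loci with a mean of at least 1 FPKM over both groups of a time, which numbered 13705 (2 h), 14175 (24 h) and 13805 (7 d). Rian and Gas5, each valued together with the other genes named at its locus, were the highest in all 6 groups. They lay between percentiles 96.6 and 97.4. Meg3 lay between percentiles 68.7 and 81.7, Snhg11 between 63.9 and 81.4, and Malat1 between 61.6 and 85.2. Miat lay between 31.5 and 68.6, and above the median locus in cocaine at 7 d alone. Neat1, between 24.0 and 40.6, and Mirg, between 21.3 and 30.5, stayed in the lower part of the loci kept. In FPKM, which is per length, the order was Rian or Gas5, then Meg3, Snhg11, Malat1, Miat, Neat1 and Mirg. It departed from this in 3 groups, with Snhg11 above Meg3 in control at 7 d, Neat1 above Miat in cocaine at 24 h, and Malat1 directly after Rian and Gas5 in cocaine at 7 d. Rian and Gas5 exchanged places between groups, and Miat and Neat1 were within 1.20-fold of each other in every control group, so these neighbours in the order were not separated.

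**Figure D1:**
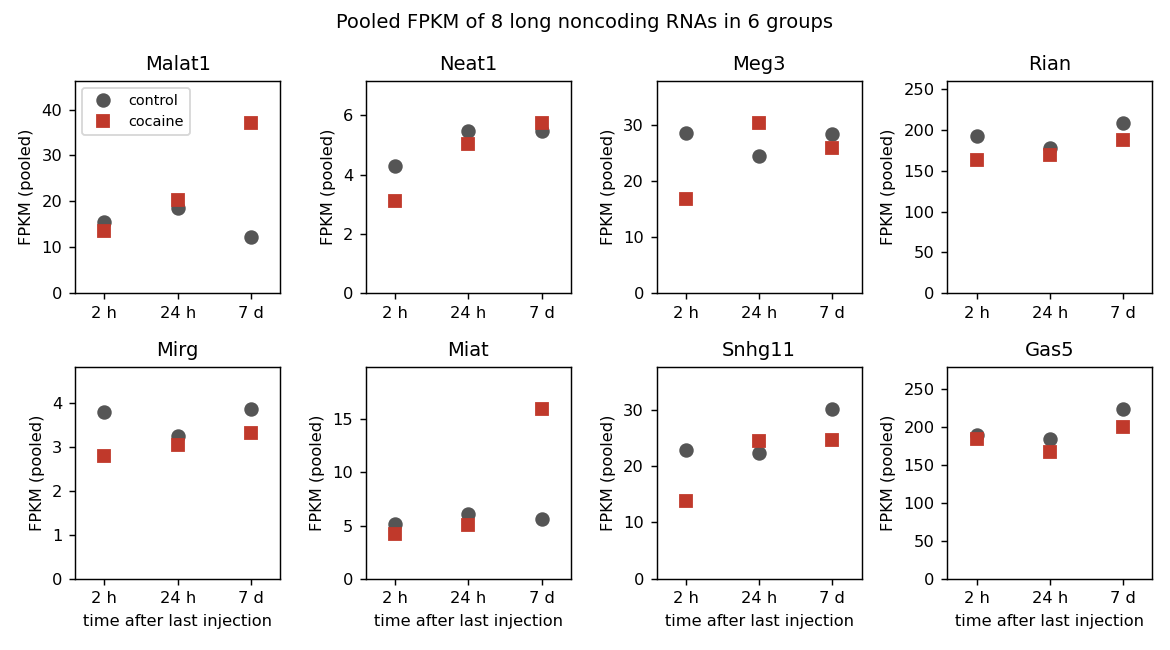
Pooled FPKM (vertical axis, from 0, with its own scale per gene) of the 8 long noncoding RNAs with a row, at 3 times after the last injection (horizontal axis); grey circles are control, red squares cocaine, 1 pooled value per group with no error available. Malat1 and Miat stand high in cocaine at 7 d alone, and Meg3 and Snhg11 stand low in cocaine at 2 h alone.

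Differences are given as log2 of cocaine over control after adding 0.1 FPKM to each, and a member is said to be past the threshold when cocaine and control differed by at least 1.5-fold. At 2 h, 2 of the 8 members were past it in the lower direction (Meg3 and Snhg11) and 0 in the higher, against 1.91% of all loci lower and 2.54% higher. At 24 h, 0 of 8 were past it, against 1.66% lower and 1.91% higher. At 7 d, 2 of 8 were past it in the higher direction (Malat1 and Miat) and 0 in the lower, against 2.44% of all loci lower and 1.74% higher. No member was past the threshold at more than 1 time.

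**Figure D2:**
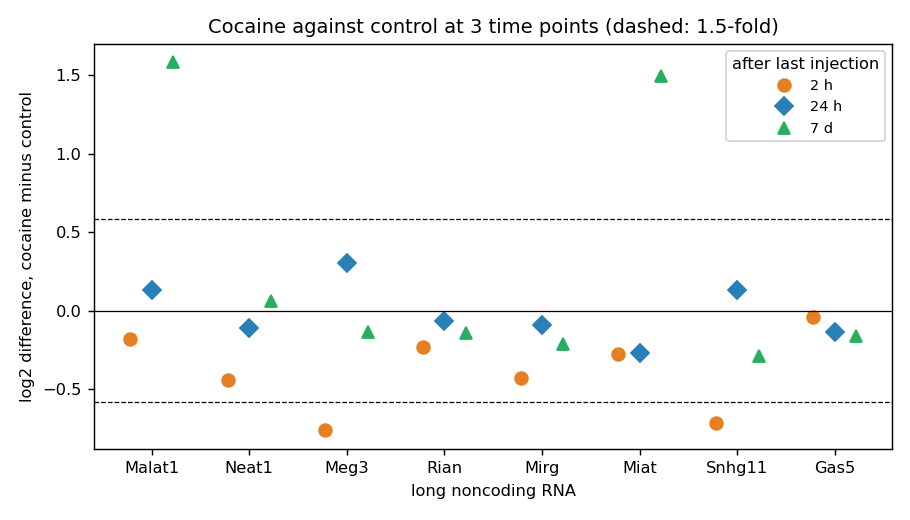
Log2 difference of cocaine from control (vertical axis) for each long noncoding RNA (horizontal axis) at 2 h (circles), 24 h (diamonds) and 7 d (triangles); dashed lines mark 1.5-fold, and each point is a ratio of 2 pooled values. All 8 points of 2 h lie below 0, and Malat1 and Miat at 7 d lie far above the rest, at 1.58 and 1.496.

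Malat1 lies at chr19:5795690-5802672 on GRCm38. Its FPKM was 15.5 in control and 13.6 in cocaine at 2 h, 18.5 and 20.3 at 24 h, and at 7 d 12.3 and 37.0. The 7 d cocaine value was 2.99 times its control (log2 difference 1.58) and stood above all 5 other values, while the control at 7 d was the lowest of the 3 controls. The 3 controls spanned 1.51-fold, the widest control span among the members, and the differences at 2 h (-0.18) and 24 h (0.13) were smaller than that span. At 7 d Malat1 was at percentile 99.2 of the differences of all loci.

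Miat, at chr5:112213228-112229395, had the same time of change as Malat1. Its FPKM was 5.15 in control and 4.23 in cocaine at 2 h, 6.07 and 5.01 at 24 h, and at 7 d 5.58 and 15.9. Cocaine was thus lower at the 2 earlier times, by 0.28 and 0.27 on the log2 scale, and 2.82 times control at 7 d (log2 difference 1.496). The 3 controls spanned only 1.18-fold, and the 7 d cocaine value lay far outside them. Its difference at 7 d was also at percentile 99.2 of all loci. The Miat locus was listed with 4 predicted short genes (Gm27357, Gm27627, Gm27882 and Gm27998), whose share of the value is not given separately.

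Meg3 lies at chr12:109541001-109571726. Its FPKM was 28.4 in control and 16.7 in cocaine at 2 h, 24.5 and 30.2 at 24 h, and at 7 d 28.4 and 25.8. Control was 1.70 times cocaine at 2 h (log2 difference -0.76), and the cocaine value lay below all 3 controls, which spanned 1.16-fold. At 24 h the direction was the opposite, with a difference of 0.30 that stayed inside the central 90% of all loci (-0.29 to 0.30), and at 7 d it was -0.14. The sign at 7 d turned to 0.01 when cocaine was scaled to the control sum over longer loci, a scaling that moved every difference of that time by 0.15.

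Snhg11, at chr2:158375638-158386145, had 22.8 FPKM in control and 13.9 in cocaine at 2 h, 22.4 and 24.5 at 24 h, and at 7 d 30.1 and 24.6. Control was 1.64 times cocaine at 2 h (log2 difference -0.72), and the cocaine value was again below every control. At 24 h the difference was 0.13 and at 7 d -0.29, both within the 1.35-fold span of the controls. Meg3 and Snhg11 stood at percentiles 1.26 and 1.38 of the differences at 2 h. Both were lower at 2 h, higher at 24 h and lower at 7 d, with sizes past 1.5-fold at 2 h only.

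Neat1, at chr19:5824708-5845596, had 4.28 FPKM in control and 3.13 in cocaine at 2 h, 5.46 and 5.04 at 24 h, and at 7 d 5.48 and 5.73. Mirg, at chr12:109729764-109749460, had 3.80 and 2.80 at 2 h, 3.26 and 3.05 at 24 h, and at 7 d 3.86 and 3.32. Both had their largest difference at 2 h, of -0.44 for Neat1 and -0.43 for Mirg, short of 1.5-fold, and in both the 2 h cocaine value was the lowest of the 6. The Neat1 difference at 7 d, 0.06, became -0.08 after the median of loci of like transcript length was subtracted.

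Rian and Gas5, the members with the highest levels, had no difference beyond 0.23 on the log2 scale in either direction. Rian, at chr12:109603882-109661716, had 192 FPKM in control and 164 in cocaine at 2 h, 178 and 169 at 24 h, and at 7 d 208 and 188. Its value includes AF357355, DQ267100, Gm23508, Gm24895 and Gm27350, and at 2 h and 24 h also Mir370, which was not listed with it at 7 d. The Gas5 locus, which contains the RefSeq gene at chr1:161034601-161038539, had 190 and 184 at 2 h, 184 and 168 at 24 h, and at 7 d 224 and 200.5. Cocaine was below control at all 3 times in both, by 0.07 to 0.23 on the log2 scale for Rian and by 0.04 to 0.16 for Gas5, although Rian at 7 d came to 0.00 under the scaling to the sum over longer loci. The cocaine and control ranges overlapped for both genes. The start of the Gas5 locus differed among the tables, and its value includes small nucleolar RNA genes such as Snord47 and the microRNA gene Mir5117. Second loci naming Malat1 (at 2 h and 24 h) and Rian (at all times, on an alternate sequence) were listed at 0 in both groups, and a second Gas5 locus at 24 h held 0.44 FPKM in control and 0.32 in cocaine.

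Peg13 has no value in these tables. Its RefSeq span (chr15:72805602-72810324) lies inside the locus of its host Trappc9, whose FPKM was 15.8 in control and 16.7 in cocaine at 2 h, and 15.99 and 16.1 at 7 d. At 24 h Trappc9 was split into a pair of entries on the same span, with 17.05 and 54.2 FPKM in control and 18.7 and 56.3 in cocaine. Those values belong to Trappc9, and how many reads of Peg13 they hold is unknown.

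Ratios between members of a group do not depend on how that group was scaled. Malat1 stood at 3.62 times Neat1, its neighbour on chromosome 19, in control and 4.36 times in cocaine at 2 h, at 3.39 and 4.02 times at 24 h, and at 7 d 2.24 and 6.45 times. Miat stood at 1.20 and 1.35 times Neat1 at 2 h, 1.11 and 0.99 times at 24 h, and at 7 d 1.02 and 2.78 times. Both ratios were highest in cocaine at 7 d, so Malat1 and Miat moved apart from Neat1 at that time on any scaling. Within the imprinted region, each locus was taken with all the genes named at it. Meg3 stood at 0.15 of Rian in control and 0.10 in cocaine at 2 h. The ratios were 0.14 and 0.18 at 24 h, and 0.14 and 0.14 at 7 d. Meg3 thus moved apart from Rian at 2 h and, in the other direction, at 24 h, whereas Mirg stayed between 0.0171 and 0.0198 of Rian in all 6 groups.

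The kit did not mark strand, so a member and a gene on the same bases cannot be told apart by strand. Gm20417, listed on the Malat1 span, had 1.32 FPKM in control and 2.35 in cocaine at 2 h, 2.71 and 1.78 at 24 h, and at 7 d 2.12 and 4.22, with log2 differences of 0.79, -0.58 and 0.96. It was above control with Malat1 at 7 d and went against it at 2 h and 24 h. Gm26906, on the Meg3 locus, had differences of -0.49, 0.38 and -0.20, with the sign of Meg3 at each time. Gm26953, on the Miat locus, had 2.97 FPKM in control and 3.07 in cocaine at 7 d, a difference of 0.04 where Miat had 1.496. Gm25129, on the Snhg11 span, had 12.8 FPKM in control at 24 h and was listed at 0 in cocaine then. It was not among the loci kept on that span at 2 h or 7 d. Zbtb37, on the Gas5 span, had a difference of 0.18 at 24 h. The split of reads between such entries was not tested.

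**Figure D3:**
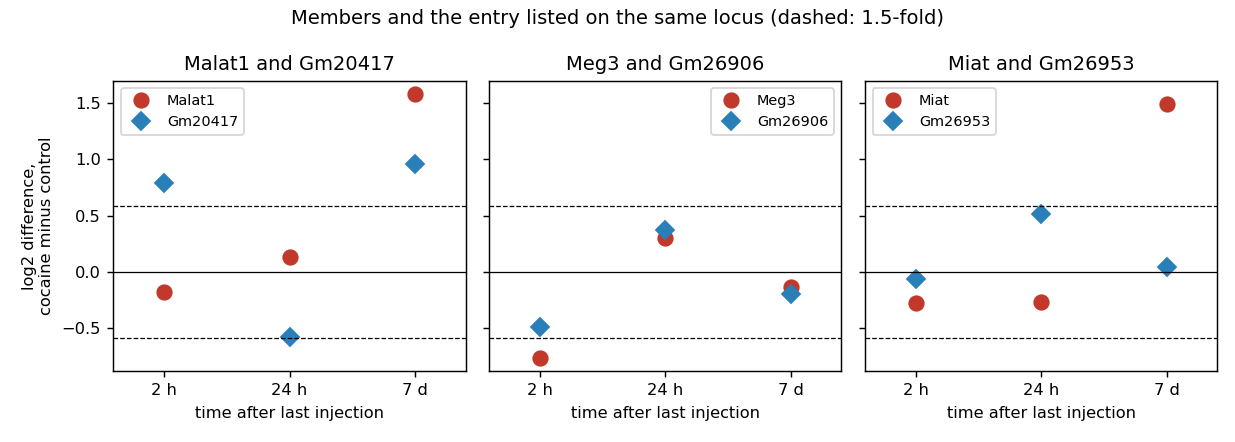
Log2 difference of cocaine from control (vertical axis) at 3 times (horizontal axis) for Malat1, Meg3 and Miat (red circles) and for the entry listed on the same bases (blue diamonds); dashed lines mark 1.5-fold. Gm26906 lies close to Meg3 at each time, whereas Gm26953 stays near 0 at 7 d, where Miat is at 1.496.

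The expressed genes nearest to Neat1, Miat and Snhg11, other members aside, were not past 1.5-fold at any time, leaving out entries on the same span. Frmd8, beside Neat1, had differences of 0.15, -0.06 and -0.01 in order of time, and Ralgapb, beside Snhg11, had 0.14, -0.05 and 0.12. C130026L21Rik and Cryba4, on either side of Miat, had 0.00 and -0.21 at 7 d, where Miat had 1.496. On the lower side of Meg3 at 24 h the nearest named locus kept was Gm25297, 220 kb away, with 2943 FPKM in control and listed at 0 in cocaine. It was not among the loci kept there at 2 h or 7 d. In the Dlk1-Dio3 list of 8 other genes, Begain, Wdr25 and Ppp2r5c were expressed above the filter, and 0 of these 3 were past 1.5-fold at any time. Begain, a postsynaptic density protein upstream of Meg3, had 56.8 FPKM in control and 56.3 in cocaine at 2 h. Begain lay 473 kb from Meg3, and Ppp2r5c lay 698 kb from Mirg. Dlk1, Rtl1 and Dio3 were below the filter at every time. Whether the lower value of Meg3 at 2 h had a counterpart among them was therefore not tested.

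At 2 h the differences of the members leaned lower, whereas the later times were mixed. Cocaine was below control, by any amount, in 8 of 8 members at 2 h and in 5 of 8 at each later time, where 43.9%, 47.0% and 52.5% of all loci were below control. The median over the members was -0.35, -0.08 and -0.14 in order of time, and the median over all loci was 0.02, 0.01 and -0.01. At 7 d, Meg3 and Rian are counted as lower although both reached 0 or above under the scaling named above.

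**Figure D4:**
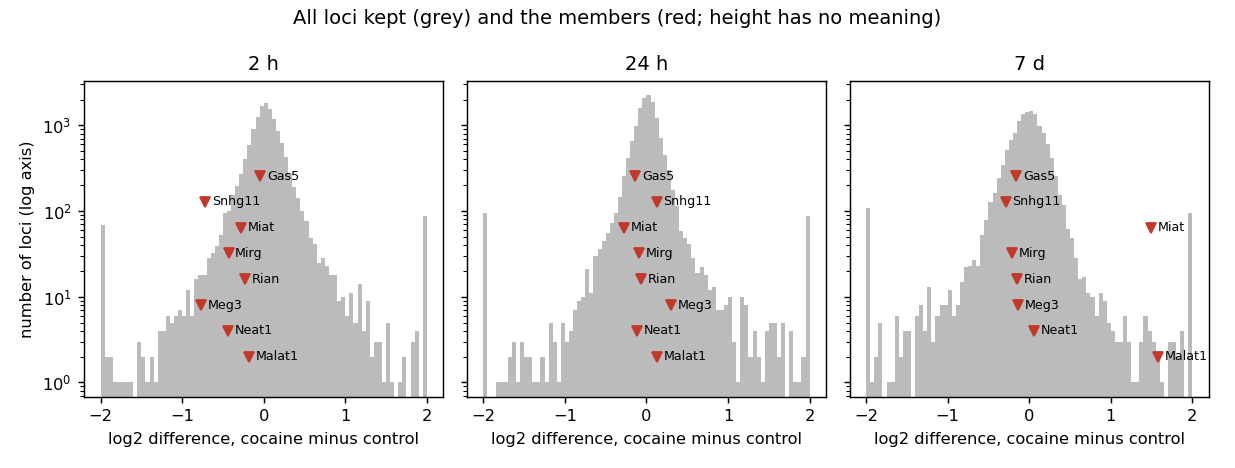
Number of loci (vertical log axis) by log2 difference of cocaine from control (horizontal axis; values beyond 2 are gathered at the edges) for all loci with a mean of at least 1 FPKM (grey), with the 8 long noncoding RNAs as red triangles whose height carries no value. Meg3 and Snhg11 lie in the lower flank at 2 h, no member lies beyond 0.58 at 24 h, and Malat1 and Miat lie in the upper tail at 7 d.

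Other long noncoding RNAs were compared in the same way, by the RefSeq class of each locus. Of those not among the members, 65.4% of 315 were lower in cocaine at 2 h, then 50.4% of 341 and 66.3% of 326 at the later times. For protein-coding loci the shares were 42.0% of 11294, 46.0% of 11596 and 51.2% of 11287. The medians of the long noncoding class were -0.11, 0.00 and -0.09, nearer 0 than the member median at 2 h. At 2 h, 9.21% of the class were past 1.5-fold lower and 1.59% higher, and at 7 d 7.06% lower and 2.15% higher. Malat1 and Miat at 7 d were thus on the side that held fewer loci of their class. Among those with a mean of at least 2.5 FPKM, 5.44% of 147 were past 1.5-fold lower at 2 h and 5.23% of 153 at 7 d.

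Snhg11 and Gas5 were set beside 20 other small nucleolar RNA host genes, of which 7 had a row. Of these, 6 passed the filter at 2 h and 7 at each later time. At 2 h 6 of 6 above the filter were below control in direction. Among them 1 was past 1.5-fold, namely Snhg1, with 18.7 FPKM in control and 6.43 in cocaine (log2 difference -1.52). Snhg9 fell below the filter at 2 h and went the other way, with 0 FPKM in control and 1.51 in cocaine. Snhg6 and Snhg12 had -0.26 and -0.15. At 24 h Snhg9 alone was past 1.5-fold, from 1.19 to 3.28 FPKM, and at 7 d Snhg9 alone, from 4.36 to 1.68. The medians of the list were -0.23, 0.07 and -0.12. A list of 32 other brain long noncoding RNAs had 16, 16 and 15 members above the filter, with medians of -0.09, 0.02 and -0.13. In it, Dancr (-0.85) and A330008L17Rik (-0.63) were past 1.5-fold lower at 2 h, Dancr (0.69) was higher at 24 h, and Dancr (-0.72) and Rmst (-0.60) were lower at 7 d.

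The genes encoding proteins that work with Malat1, Neat1 and Gas5 showed no difference past 1.5-fold. These values are of their RNA, and protein was not measured. Of 20 paraspeckle proteins (18 at 7 d), 0 were past it, and Hnrnpk, an abundant RNA-binding protein, had a difference of -0.03 at 2 h. Sfpq and Nono, which bind Neat1, had 0.06 and 0.04 at 2 h. Of 21 nuclear speckle and SR splicing proteins, 0 were past it at any time, and the most abundant, the splicing factors Srsf5 and Srsf3, had -0.02 and -0.28 at 7 d, where Malat1 had 1.58. At 2 h Srsf5 had -0.50. Of 13 factors of nonsense-mediated decay, 0 were past it at any time. Eif4a3 and Magoh, both of the exon junction complex, had -0.08 and -0.03 at 2 h and -0.15 and -0.33 at 7 d, and Upf1, the central helicase of that pathway, had 0.12, 0.09 and 0.33 in order of time.

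**Figure D5:**
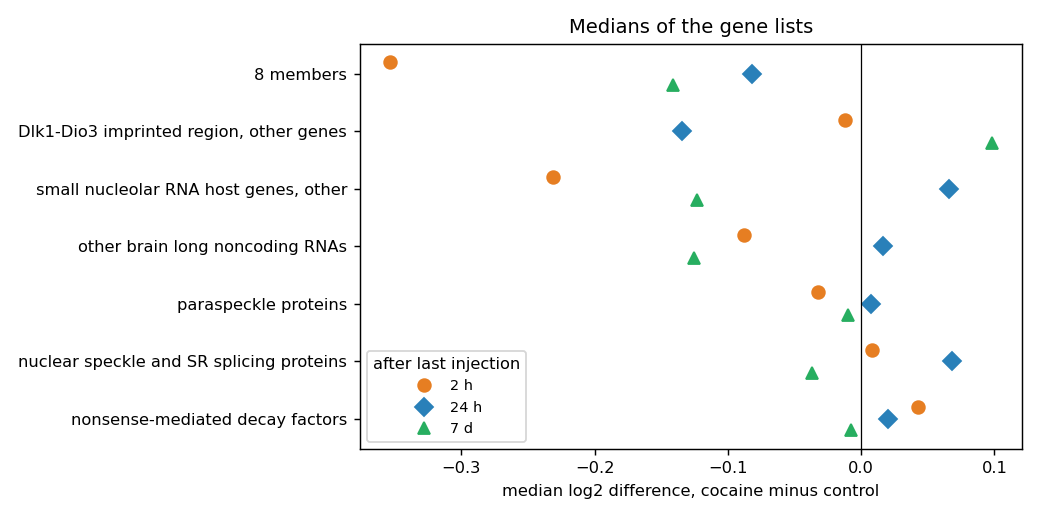
Median log2 difference of cocaine from control (horizontal axis) for the 8 members and 6 gene lists (vertical axis) at 2 h (circles), 24 h (diamonds) and 7 d (triangles). The members and the other small nucleolar RNA host genes have the lowest medians at 2 h, -0.35 and -0.23, and the protein lists stay within 0.07 of 0.

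Markers of the labelled tissue were present in all groups, with a summed FPKM of the 5 cortical excitatory neuron markers of 557 to 634 over the 6 groups, against 17.7 to 21.8 for the striatal neuron markers above the filter. Above the filter, 0 markers of neurons, cortical excitatory neurons, oligodendrocytes, astrocytes, microglia, endothelial cells and olfactory bulb were past 1.5-fold at any time. Of 5 olfactory bulb markers only 2 were above it. Among those below it, Th had log2 differences of -0.89, -0.87 and -0.65 in order of time, whereas Eomes and Cdhr1 stayed within 1.5-fold. In direction alone, by any amount, astrocyte markers were higher in cocaine in 5 of 5 at 2 h (median log2 difference 0.15), lower in 5 of 5 at 24 h (-0.22) and higher in 5 of 5 at 7 d (0.15). Endothelial markers were higher in 5 of 5 at 2 h (0.13) and at 7 d (0.16), and oligodendrocyte markers were lower in 6 of 6 at 24 h (-0.16). Cortical excitatory neuron markers were higher in 5 of 5 at 24 h (0.14). Of the striatal markers Adora2a alone was past 1.5-fold, with 0.68 at 7 d. Of 5 red blood cell markers, 4 were past 1.5-fold higher in cocaine at 2 h. By any amount, 5 of 5 were higher at 2 h and at 7 d, and 3 of 5 at 24 h. Their sum at 2 h was 323 FPKM in control and 504 in cocaine, when Meg3 and Snhg11 were lower. The later sums were 458 and 504 (24 h) and 452 and 529 (7 d). Of the choroid plexus markers only Ttr passed the filter, and it had 1.898 FPKM in control and 0.46 in cocaine at 2 h, 1.801 and 1.10 at 24 h, and at 7 d 0.28 and 6.54. The part of astrocytes, endothelial cells, the other marked cell types, blood and choroid plexus in the differences of the members was not tested.

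The genes whose differences over the 3 times lay closest to those of a member, by Euclidean distance among 13358 genes, were mostly predicted genes. For Malat1 they were Gm22009 (distance 0.25) and Gm11027 (0.29), and for Miat Gm5814 (0.28) and Gm22009 (0.37). For Meg3 they were Gm26620 (0.19) and Tekt5 (0.20), and for Snhg11 Gm12371 (0.08) and Usp2, a deubiquitinase (0.09). Over 3 points such likeness is a description only.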

How the data were processed

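Per the labels, 12 libraries were made from mouse prefrontal cortex, 2 for each of 6 groups. The deposited unit is FPKM, which the authors computed per locus with Cuffdiff from TopHat2 alignments; their processing notes name CASAVA 1.8.2, Trimmomatic 0.32, TopHat2 2.0.12 and Cufflinks 2.2.1 and the build GRCm38, whereas the methods name mm9, cutadapt and an earlier Cufflinks. The coordinates matched RefSeq genes on GRCm38. Read length also differed between labels and methods. Both groups of a time were normalized together by the authors, each time in a table of its own. The deposited columns of fold changes, test statistics, p values and q values were not used. The first value column was taken as control (saline) and the second as cocaine, following the description of the tables given with the request and the study's supplementary tables, since the headers alone leave the letter C open.

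Depth is unknown from the tables, and values per library were not used here. With 1 pooled value per group no test was made. Differences are log2 of cocaine over control with a pseudocount of 0.1 FPKM, which understates changes of low genes. Loci with a mean of at least 1 FPKM over both groups were kept, and loci whose estimate failed (175, 169 and 204 in order of time) were left out. A member with several loci was represented by the one with the highest mean. A call is a difference of at least 1.5-fold. The background shares count all loci kept, the members included.

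The members and lists were chosen with earlier results of these data known, and the comparison by RefSeq class was added after values were seen. Named genes were the members, genes overlapping or next to them, the 2 nearest patterns of each member past 1.5-fold, and listed genes past 1.5-fold; other listed genes were the 2 of highest mean, with Sfpq, Nono, Upf1, Gm25297 and the neighbours of Neat1 added after their values were seen; some genes under this rule are not reported here. Alternatives covered the pseudocount, the filter, the choice of locus, the threshold, scaling and correction for length or level. Scripts ran in Python 3.11.15 with numpy 2.4.6, pandas 2.3.3 and matplotlib 3.10.9, and the counting steps were tested on simulated data.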

Additional observations from a re-analysis of the deposited data

How the results depend on the processing

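No paired analysis was possible because each deposited value combines both libraries of a group, and for the same reason no replicate could be left out in turn. Of 274 values recomputed for single members, 251 moved by less than the spread of the control levels over the 3 tables, 20 moved by more and 3 reversed. Dropping the filter, taking the longest locus and summing the loci of a member each gave 24 of those 251. These settings could hardly move a value, since the filter does not enter it and second loci were at or near 0. The 3 reversals came from rescaling each group to a sum of 1000000 FPKM, which gave Meg3 0.00065 and Snhg11 0.00092 at 2 h and Miat -1.1e-05 at 7 d; members past 1.5-fold then numbered 0 at 2 h and 0 at 7 d, and the member median at 2 h was 0.0010. By construction that scaling shrinks nearly every value to near 0, since loci over 1000000 FPKM, with median spans of 24 to 45 bases, held over 99% of each sum, and the pseudocount then outweighs the members. Taking only loci that name a member alone left 1 past 1.5-fold at 2 h and 1 at 7 d, with a median of 0.064 at 7 d, because fewer members remain. With a ratio of 5 to 4 as the threshold 4 members were past it at 2 h, all lower, against 5.82% of all loci, and with 2-fold 0 against 0.861%; at 7 d Malat1 and Miat, 2 of 8, were also past 2-fold, against 1.06% of all loci higher. Scalings of cocaine to the control upper quartile, and to the control sum over loci of at least 300 bases under 10000 FPKM, were chosen after seeing the data; the second gave a median of 0.0047 at 7 d. Apart from the sum of 1000000, Malat1 and Miat at 7 d and Meg3 and Snhg11 at 2 h stayed past 1.5-fold in each alternative that gave them a value, up to 1.73 and 1.64 and down to -0.85 and -0.77. Depth per library, and with it the counting error of low members such as Mirg, is not known from these values.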
